A study of Drosophila melanogaster with 12 samples.

Results

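The nuclear and cytoplasmic fractions of control cells were compared on 6 of the 12 arrays of a series made with D. mel-2 cells, a line derived from Drosophila melanogaster embryos. The arrays were chosen by their titles, which mark the control treatment as NS, and all probe sets other than the array's own controls were taken, 13966 in all. The 3 nuclear and the 3 cytoplasmic control arrays hold RNA of cells given a non-specific RNA interference. The other 6 arrays hold the same fractions of cells in which U2AF50 was depleted by RNA interference, and serve here for comparison. U2AF50 belongs to a splicing factor that binds near the end of introns. All 4 groups share the cell line and a treatment with interfering RNA, so none holds untreated cells. The sources used here do not give the amount of interfering RNA, its sequence or the length of the treatment. The labels name hypotonic lysis for nuclear arrays 2 and 3 and cytoplasmic array 3 of the control, and give no lysis method for its other 3 arrays. They name it for all 6 arrays of the depleted cells. Whether replicates were separate cultures is not labelled, and the errors and p-values thus measure only the spread between these arrays, which may be technical.

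An mRNA is made and spliced in the nucleus and translated in the cytoplasm, on ribosomes that are free in the cytosol or bound to the endoplasmic reticulum (ER). Proteins that begin with a signal sequence, or that carry membrane-spanning segments along their chain, are as a rule made on ER-bound ribosomes, whose membrane is continuous with the outer membrane of the nuclear envelope. Proteins of the cytosol, nucleus and mitochondria, and membrane proteins held by a segment at their very end (tail-anchored proteins), are made on free ribosomes.

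The labels call the material total RNA, and each array gave 1 intensity per probe set. Differences are given as log2 of the nuclear over the cytoplasmic fraction, after 94.9 was added to each intensity and the arrays were brought to 1 distribution, and folds are on that scale, which understates the change of weakly detected genes. A gene is called higher or lower where limma's adjusted p was under 0.05. Each value is set against all the signal of its own fraction and says nothing of what part of an mRNA lay in the nucleus, and fewer cells of a type and less RNA per cell cannot be told apart in such bulk samples. Median intensities of the 6 arrays ran from 372.4 to 473.9, and the number of arrays limits the precision. Pairs of replicates correlated over probe sets at 0.868 to 0.922 in the cytoplasm and at 0.903 to 0.926 in the nucleus. The ratio of the 3′ to the 5′ GAPDH control probe set, a sign of RNA quality, was 3.89 to 7.91 on the cytoplasmic and 4.25 to 7.58 on the nuclear arrays, and these ranges overlap. The control probe set for the middle of 18S ribosomal RNA read 267.2 to 753 on the cytoplasmic and 815.8 to 1247 on the nuclear arrays, so the nuclear arrays were the higher here. The set for its 5′ end read 28.9 to 1649.7 on the cytoplasmic and 112.2 to 187.4 on the nuclear arrays. For the 3′ end the values were 254.4 to 776.6 and 345.5 to 990.2. Both of these overlap, so the 18S probe sets did not share 1 direction. With the GAPDH ratio as a covariate, the calls numbered 1434 for higher and 2108 for lower, against 1417 and 2114 without it. The part of the 18S values in the results was not tested.

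Markers of plasmatocytes, the phagocytic blood cells of the fly, stood above the array's median for 9 of 11 genes in at least 1 fraction, while NimC1 and gcm stayed near background. Their summed intensity was 6773 to 9050 on the cytoplasmic arrays and 54087 to 59787 on the nuclear arrays. So the sum of this cell type's own markers moved with the fraction, while srp had a mean log2 value of 11.59 in both. For other types the counts above the median were 1 of 4 for crystal cells, 2 of 3 for lamellocytes, 1 of 6 for neurons and 1 of 5 for muscle. They were 3 of 6 for the germline, 4 of 5 for the fat body and 3 of 6 for epithelium. As a share, the fat body was close to the plasmatocytes. The same share over all probe sets was not computed, so the counts do not set 1 cell type apart. The lamellocyte set summed to 3198 to 4296 in the cytoplasm and 16056 to 21507 in the nucleus and the epithelium set to 4195 to 6014 and 7593 to 9499. Both sums were thus higher in the nucleus with no overlap, but single markers differed. Of the lamellocyte markers, mys read 1786, 1641 and 1683 in the cytoplasm and 19983, 15116 and 19086 in the nucleus. PPO3 went the other way, with 1194, 2133 and 1286 against 1037, 613 and 687, and atilla overlapped. Of the epithelium markers, Tsf2, Nrg and crb were higher without overlap, and shg, baz and cora overlapped. The germline set summed to 5644 to 7096 in the cytoplasm and 4424 to 4845 in the nucleus. The fat body set summed to 1894 to 4103 and 1913 to 3404, which overlap.

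Most of the listed mRNAs of secreted, lysosomal, ER, Golgi and cell surface proteins lay on the nuclear side, and most of those of the cytosol, the respiratory chain and mitochondrial ribosomes on the cytoplasmic side. Lists of genes were read against the background of all 6868 genes tested, of which 17.3% were higher in the nuclear fraction, 25.5% were lower, and the median log2 difference was -0.28. Over all probe sets tested the shares were 16.9% and 25.2%. Joined, 10 lists of the secretory pathway and the cell surface held 268 genes on the array, of which 211 passed the filter on low values. The nuclear arrays were higher for 166 of these and lower for 0, and the median was 2.64. At an unadjusted p under 0.05 in limma, 1 of them was lower. With no filter 167 were higher, and over the alternative settings the median lay between 1.94 and 2.91. Joined, 12 lists of cytosolic, mitochondrial and splicing proteins held 368 genes, of which 332 were tested, 267 were lower in the nuclear fraction and 2 were higher, with a median of -1.16. The 6 lists of proteins that work in the nucleus held 224 genes, of which 202 were tested, 92 were lower and 8 higher, with a median of -0.68. The 15 tested core snRNP proteins belong to both of the last groups. The joined groups leave out lists that were more mixed. With 3 further mitochondrial lists (carriers, import and mitochondrial aminoacyl-tRNA synthetases), which alone had 13 of 38 lower and 3 higher, the cytosolic group had 280 of 370 lower and 5 higher. With the membrane sector of the V-ATPase and the tail-anchored proteins, the secretory and surface group had 174 of 242 higher and 13 lower. These wider groups were formed after seeing the data, and the lists themselves were chosen with earlier results of these data known. The counts thus describe the lists and are not an independent test. The 6012 tested genes in no list had 991 higher and 1362 lower, with a median of -0.26. With only the control arrays whose labels name hypotonic lysis, a choice made after seeing the data, the counts in the 3 groups of lists became 150 higher, 209 lower and 60 lower. The 8 nuclear genes called higher then became 2, and they were 5 with no filter or on the values as deposited.

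**Figure D1:**
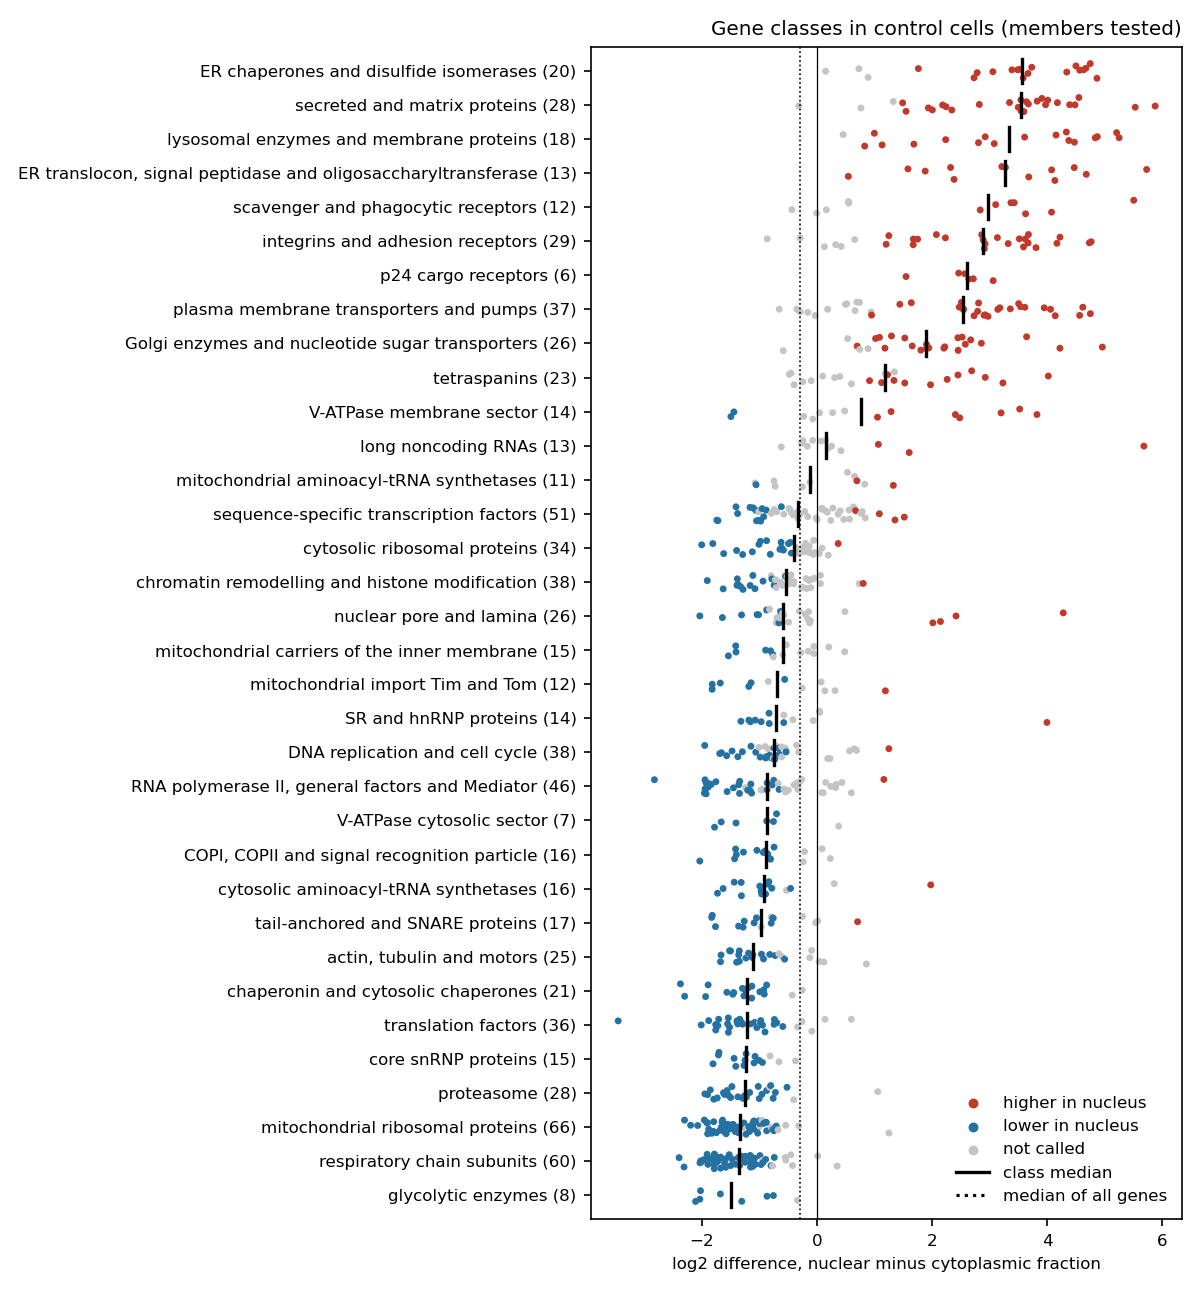
Each point is 1 tested gene, placed by its log2 difference between the nuclear and cytoplasmic fractions of control cells (horizontal axis), in rows by class with the number tested in brackets; thick bars are class medians and the dotted line is the median of all genes, -0.28. Class medians run from 3.56 for ER chaperones to -1.49 for glycolytic enzymes.

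The size of the differences was uneven between the directions. Among all genes tested, 371 were called and at least 8-fold higher in the nuclear fraction, or 5.4%, and 1, or 0.0146%, was at least 8-fold lower, eIF6, a factor that binds the large ribosomal subunit. Of all 6868 genes tested, 211 belonged to the secretory and surface lists, 332 to the 12 cytosolic lists, 202 to the nuclear lists and 856 to any list. Of the 371 genes, these counts were 85, 0, 1 and 91, so most of the 371 were in no list. Known only by an annotation number were 103, or 27.8%, beside 35.2% of all genes tested. Of the 67 genes called and at least 4-fold lower, 0 belonged to the secretory and surface lists, 16 to the cytosolic lists, 1 to the nuclear lists and 17 to any list.

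The machines that carry proteins into the ER were high in the nuclear fraction. Sec63, which works with the chaperone BiP at the translocation channel, read 452, 145 and 165 on the cytoplasmic arrays and 8440.0, 7996 and 8436 on the nuclear ones. Stt3B, a catalytic subunit of the oligosaccharyltransferase that adds sugar chains to proteins in the ER, read 2561, 3096 and 2905 against 55547, 60409.8 and 63788. In both genes every nuclear array lay far above every cytoplasmic one. The log2 difference was 4.68 for Sec63 (SE 0.33, adjusted p = 2.20e-09, n = 3 per fraction) and 4.47 for Stt3B (SE 0.12, adjusted p = 1.06e-13). All 13 tested genes of the list of translocon, signal peptidase and oligosaccharyltransferase were higher, with a median of 3.28. The small channel subunits Sec61beta (-1.76) and Sec61gamma (-1.82, SE 0.20), which are tail-anchored, were lower. They were counted in the list of tail-anchored proteins described below and not among these 13. Within the 13, the smallest difference was that of Dad1, a small oligosaccharyltransferase subunit, at 0.55 (SE 0.17, adjusted p = 0.0138). It read 21102, 12819.9 and 14150.2 in the cytoplasm and 27859.9, 26759 and 25325 in the nucleus.

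Protein folding enzymes of the ER had 17 of 20 tested genes higher, with a median of 3.56. ERp60, a protein disulfide isomerase, was among the brightest, at 3147, 3302 and 5119 in the cytoplasm and 91654.5, 104991 and 95297 in the nucleus. Uggt, the enzyme that tests the folding of glycoproteins, read 81.4, 418 and 383 against 9562, 8326 and 8520.3, a log2 difference of 4.64 (SE 0.34, adjusted p = 3.42e-09). The ubiquitin ligase gene sip3 (4.75) and Hrd3 (4.34), both of the pathway that removes misfolded ER proteins, had differences of like size. The 3 members that were not called were Herp (0.89), Cnx14D (0.73) and Hsc70-3 (0.15).

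Genes of the path beyond the ER followed. All 6 p24 and KDEL cargo receptors, which sort proteins between ER and Golgi, were higher, with a median of 2.61. For bai, a p24 protein, the arrays read 3043, 4040.3 and 4098 in the cytoplasm and 27625, 29373 and 25480.3 in the nucleus, with no overlap. Golgi enzymes and sugar nucleotide transporters had 22 of 26 higher, with a lower median of 1.91. Among them were Pgant2, which starts mucin-type sugar chains (4.22, SE 0.34), nac, a GDP-fucose transporter (3.64, SE 0.32), and alpha-Man-IIa, which trims N-linked chains (2.86). The matrix protein GM130, which coats the cytosolic face of the Golgi, had -0.58 and was not called, although it was the 1 listed member below 0.

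Lysosomal genes had 17 of 18 higher, with a median of 3.35. Sap-r, the precursor of the saposins that help to break down sphingolipids, read 2289, 3610.3 and 3607 in the cytoplasm and 70763, 117256 and 85139 in the nucleus. The cysteine protease gene CtsF read 1335, 2006 and 2741 against 53779.6, 51076 and 50509. Neither gene overlapped between fractions, and their log2 differences were 4.84 (SE 0.15, adjusted p = 2.36e-13) and 4.87 (SE 0.19, adjusted p = 1.89e-12). Npc1a (3.61) and Npc2a (0.83), which move cholesterol out of lysosomes, were also called. Among secreted and matrix proteins 25 of 28 were higher. LanB1, a laminin chain, read 627, 463 and 587 in the cytoplasm and 16875, 14182 and 13420.5 in the nucleus, a log2 difference of 4.39 (SE 0.17, adjusted p = 1.64e-12). The growth factor Idgf4 was not called (-0.31), at 315, 318 and 121 against 88.4, 212 and 226, close to the value added before the logarithm, while its relatives Idgf1, Idgf2, Idgf3 and Idgf6 were higher by 2.82 to 4.48.

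Cell surface proteins gave a wider spread. Integrins, signalling receptors and adhesion molecules had 23 of 29 higher, with a median of 2.89. The cytokine receptor gene dome read 161, 213.5 and 63 in the cytoplasm and 6271, 5612 and 6745 in the nucleus, a log2 difference of 4.76 (SE 0.28, adjusted p = 2.10e-10). The integrin beta chain gene mys was 3.14 higher (SE 0.17), the insulin receptor gene InR 2.08 and the E-cadherin gene shg, at 0.42, was not called. Transporters and pumps had 25 of 37 higher, with a median of 2.55, among them the calcium pumps PMCA of the plasma membrane (4.62) and SERCA of the ER (4.06). SERCA read 1706, 2121 and 2062 against 35660.0, 30824 and 35458. Scavenger and phagocytic receptors had 7 of 12 higher, such as drpr, a receptor for dying cells, at 3.37 (SE 0.18). It read 1244, 1685 and 2010.2 in the cytoplasm and 20629.8, 17920.2 and 20696 in the nucleus, with no overlap. Tetraspanins, which organise membrane domains, had 12 of 23 higher and a median of 1.19. Tsp42Ed was the highest of them, at 4.02 (SE 0.16), and 11 members were not called. With no filter on low values the medians fell to 1.68 for integrins and receptors, 1.64 for transporters, 0.55 for scavenger receptors and 0.70 for tetraspanins, and that of integrins and receptors was 1.86 with a larger value added before the logarithm.

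The secretory and surface lists took a larger part of the signal of the nuclear arrays. They made up 1.04%, 1.18% and 1.23% of the summed intensity of the cytoplasmic arrays and 10.97%, 11.49% and 11.29% of that of the nuclear ones, a ratio of the means of 9.77. The 12 cytosolic, mitochondrial and splicing lists took 22.5%, 19.4% and 19.5% of the cytoplasmic and 11.01%, 11.10% and 10.64% of the nuclear signal, a ratio of 0.533. The 6 lists of nuclear proteins took 1.96%, 2.55% and 2.76% against 1.55%, 1.45% and 1.56%, a ratio of 0.627. In each group the 3 arrays of 1 fraction lay apart from the 3 of the other. The two-sided exact permutation test gave p = 0.1 for each, the smallest it allows with 3 arrays against 3. Since the lists were chosen with earlier results of these data known, this adds no independent support. The widest ratio of a single list was that of lysosomal genes, which took 0.134% ± 0.0239 (SD, n = 3) in the cytoplasm and 2.23% ± 0.230 in the nucleus. Cytosolic ribosomal proteins, the brightest list, took 10.6% ± 2.69 and 6.35% ± 0.284. Summed intensity weights bright probe sets, and cytoplasmic array 1 was apart from the other cytoplasmic arrays for the ribosomal proteins, at 13.7% against 8.996% and 9.08%.

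**Figure D2:**
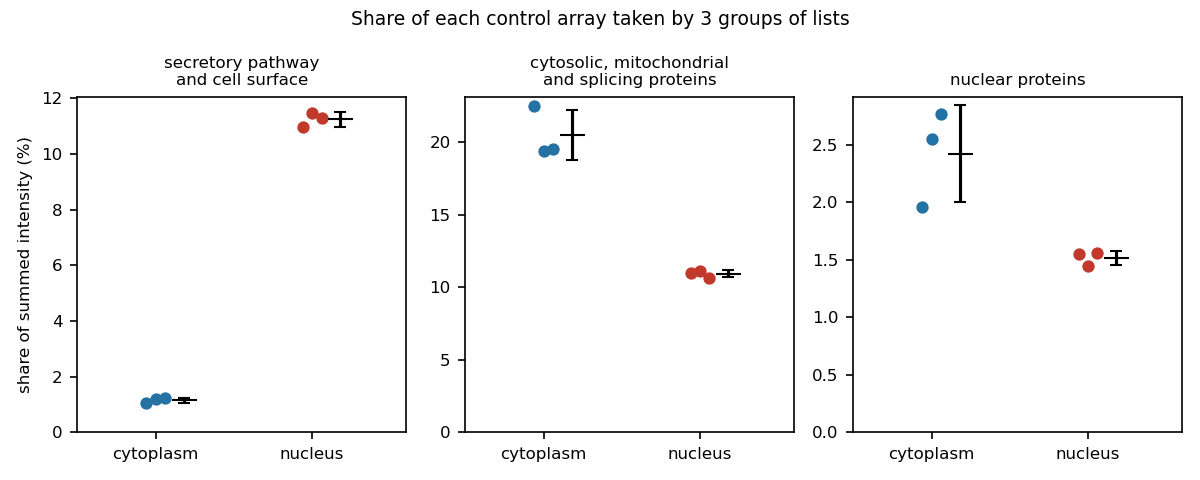
Share of the summed intensity of each control array (vertical axis, percent, from 0) taken by 3 groups of gene lists in the cytoplasmic and nuclear fractions; points are arrays, and bars give the mean and SD of 3. The secretory lists sit near 1.15% in the cytoplasm and 11.3% in the nucleus, while the other 2 groups are lower in the nucleus.

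Subunits of a single protein complex parted by where they sit. The V-ATPase is a proton pump that acidifies lysosomes, with a sector set in the membrane and a sector on its cytosolic face. Its membrane sector had 7 of 14 tested genes higher and 2 lower, and its cytosolic sector 0 of 7 higher and 6 lower, with medians of 0.77 and -0.87. The median of the membrane sector was 0.49 with no filter on low values and 2.41 with a stricter one. At an unadjusted p under 0.05 in limma, 1 gene of the cytosolic sector, Vha26 (0.38), was higher. Vha100-1, the large membrane subunit a, read 727, 1181 and 1419 in the cytoplasm and 16482, 12837 and 12534 in the nucleus (log2 difference 3.52, SE 0.21, adjusted p = 3.01e-10). Vha13, the subunit G of the outer stalk, read 7852, 8564 and 8556 against 2669, 2302 and 2226 (-1.77, SE 0.15, adjusted p = 3.46e-08). The accessory subunit VhaAC45 (3.82) and the proteolipid VhaPPA1-1 (2.48) went with Vha100-1, and Vha55 (-1.40), a subunit of the head, went with Vha13. The 2 members of the membrane list that were lower, VhaAC39-1 (-1.49, SE 0.17, adjusted p = 8.18e-07) and VhaAC39-2 (-1.44, SE 0.54, adjusted p = 0.0420), both encode subunit d, which has no membrane-spanning segment and is known in other species to sit on the rotor's cytosolic side. The call of VhaAC39-2 was lost in 9 of 19 alternative settings, 4 of which left out 1 of cytoplasmic arrays 1, 2 and 3 and nuclear array 2.

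The membrane-spanning parts of the targeting machinery and its tail-anchored or soluble parts also had opposite signs. TRAM, a membrane protein beside the translocon, read 1731, 1143.5 and 1228.5 in the cytoplasm and 8899, 6680.5 and 7533 in the nucleus (2.38, SE 0.19, adjusted p = 1.53e-08), and Trp1, the fly Sec62, was 3.68 higher (SE 0.29). Sec61beta, a small tail-anchored subunit of the same channel, read 23975, 23189 and 23109.7 in the cytoplasm and 7261, 6937 and 8015 in the nucleus (-1.76, SE 0.14, adjusted p = 1.43e-08). The signal recognition particle, which brings ribosomes to the ER and is itself soluble, had Srp9 (-1.43), Srp19 (-1.40), Srp14 (-1.27), Srp68 (-1.04), Srp54k (-0.85) and Srp72 (-0.81) lower. Its receptor subunit SrpRalpha, at 0.24, was not called. With the vesicle coats COPI and COPII these genes formed a list of 16 tested members, 12 of them lower and 0 higher, also at an unadjusted p under 0.05 in limma, with a median of -0.88. The coat subunit Sec13, which is also part of the nuclear pore, was the lowest at -2.03 (SE 0.14). Tail-anchored and SNARE proteins, the latter drivers of membrane fusion, had 11 of 17 tested genes lower and 1 higher, with a median of -0.97. The electron carrier gene Cyt-b5 read 5614, 7095 and 6743 against 2897, 2236 and 2346 (-1.36, SE 0.16, adjusted p = 1.36e-06). Ykt6 (-1.26), Syb (-1.09), Vamp7 (-1.05) and Sec22 (-0.76) were also lower. The 1 gene that was higher, Tango14 (0.71, SE 0.24, adjusted p = 0.0217), is not known as a tail-anchored protein or a SNARE, and its call was lost with quantiles set within fractions and without cytoplasmic array 3 or nuclear array 2.

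Among 26 genes of the nuclear pore and lamina, 4 were higher, 8 were lower (15 with quantiles within fractions and 5 with only the hypotonic arrays) and 14 were not called. Of all genes tested 17.3% were higher and 25.5% lower, so the list as a whole was not far from the background. The 4 that were higher were Ndc1, which anchors the pore in the membrane, and LBR, koi and MAN1, which are membrane proteins of the inner nuclear envelope. Ndc1 read 74.5, 381 and 509 in the cytoplasm and 7359, 6319 and 7685 in the nucleus (4.28, SE 0.37, adjusted p = 3.18e-08). LBR read 1666, 1705 and 1355 against 8416, 9302 and 9867 (2.42, SE 0.24, adjusted p = 1.53e-07). For koi (2.15, SE 0.18) and MAN1 (2.02, SE 0.21) the fractions did not overlap either. The lamin-binding protein gene Ote, whose product has its membrane segment at the end, read 5019, 3664.5 and 3678 in the cytoplasm and 2016, 1640.3 and 2069 in the nucleus (-1.04, SE 0.18, adjusted p = 1.08e-04). Nup62 (-1.64), Nup107 (-1.31), Nup93-1 (-0.87), Nup98-96 (-0.66) and Nup50 (-0.63), which are soluble parts of the pore, were lower as well. So mRNAs of the nuclear envelope lay on both sides, and the 4 high ones encode proteins that span the membrane.

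**Figure D3:**
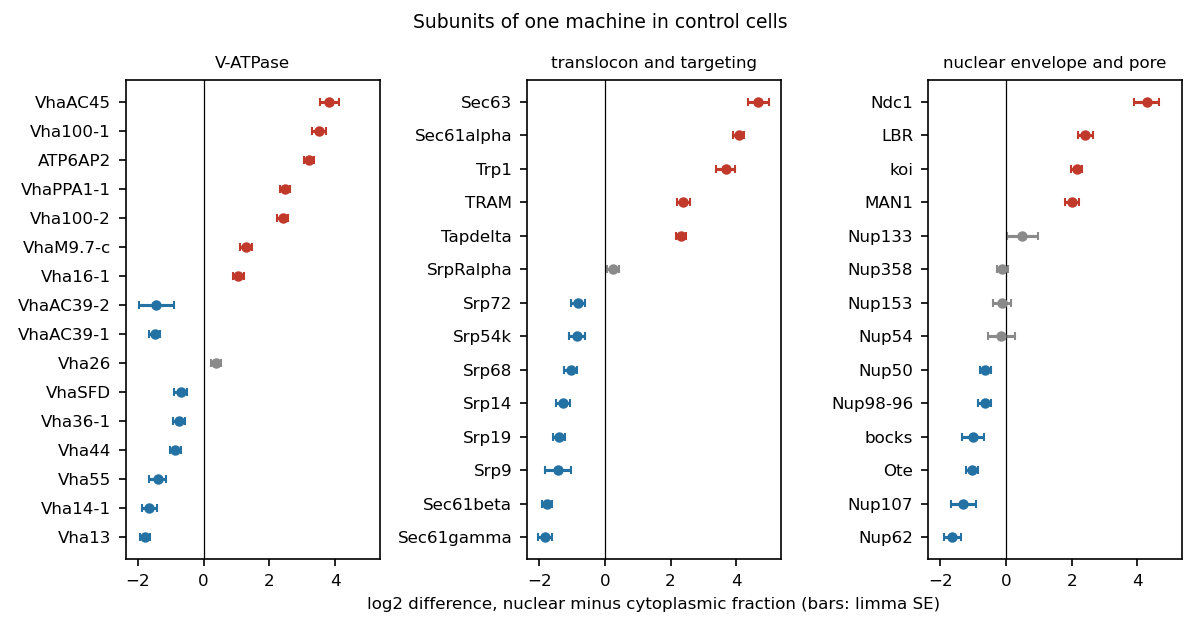
Log2 difference between the nuclear and cytoplasmic fractions of control cells (horizontal axis) for subunits of the V-ATPase, of the translocon with its targeting machinery, and of the nuclear envelope and pore; bars are limma SE, red is higher, blue lower and grey not called. Among the envelope genes Ndc1 is at 4.28 and Nup62 at -1.64.

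Most mRNAs of the respiratory chain and of mitochondrial ribosomes lay on the cytoplasmic side, while other mitochondrial lists were mixed. Carriers of the inner membrane, which exchange metabolites and span it many times, had 6 of 15 tested genes lower and 0 higher, with a median of -0.59, and 7 lower and 0 higher at an unadjusted p under 0.05 in limma. The count was 4 without cytoplasmic array 1 or 2 or nuclear array 2, it was 3 with only the hypotonic arrays, and the median was -0.21 with no filter. The ADP/ATP carrier gene sesB read 27159, 35216 and 35537 in the cytoplasm and 12516, 10514 and 11932 in the nucleus (-1.53, SE 0.15, adjusted p = 1.12e-07). The phosphate carrier gene Mpcp2 (-1.41) and the dicarboxylate carrier gene Dic1 (-1.40) were lower by a like amount. The respiratory chain had 52 of 60 lower with a median of -1.35, and mitochondrial ribosomal proteins 57 of 66 with a median of -1.33 (33 lower with only the hypotonic arrays). Of 12 Tim and Tom import genes 6 were lower, such as the small carrier chaperone Tim8 (-1.82, SE 0.18), and 1 was higher, ttm50 (1.19, SE 0.25, adjusted p = 7.33e-04), a Tim50 relative. For ttm50 the arrays read 957, 1382 and 1519.8 against 3077, 3045 and 2602. Aminoacyl-tRNA synthetases, which load amino acids on tRNA, differed by compartment. The cytosolic enzymes had 13 of 16 lower, with a median of -0.92 and AsnRS lowest at -1.72 (SE 0.19). The mitochondrial ones had 1 of 11 lower, PheRS-m (-1.05, SE 0.27), and 2 higher, MetRS-m (1.33, SE 0.50) and AspRS-m (0.70). Their median was -0.12 and lay between -0.26 and 0.53 over the alternative settings, so it has no settled sign, and the calls of MetRS-m and AspRS-m were lost in 11 and 2 of 19 settings.

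Among cytosolic machines, most members of most lists were lower in the nuclear fraction. Glycolytic enzymes had 7 of 8 lower and the lowest median, -1.49. The enolase gene Eno read 18429, 19925 and 20142 in the cytoplasm and 5213, 5140.1 and 4719 in the nucleus (-2.10, SE 0.12, adjusted p = 1.47e-10), and Ald1 (-2.03) and Pglym78 (-2.02) were close to it. The chaperonin and its partners had 19 of 21 lower, with a median of -1.21 and the prefoldin subunit gene Pfdn6 at -2.29. The proteasome had 25 of 28 lower and 0 higher, and translation factors 30 of 36 and 0, with 1 gene higher in each list at an unadjusted p under 0.05 in limma. Actin, tubulin and their motors had 17 of 25 lower, with a median of -1.11. The profilin gene chic, whose product binds actin monomers, read 22231, 27012 and 32491 against 9365, 8616 and 8693 (-1.67, SE 0.14, adjusted p = 1.46e-08). Cytosolic ribosomal proteins had 17 of 34 lower, 1 higher and a median of -0.40, and these values depended on the scaling. The list had 28 lower and a median of -0.85 with arrays centred on medians, 26 and -0.87 on the values as deposited, and 25 and -0.65 with quantiles within fractions. They held RpS29 at -1.80 (SE 0.22) and RpL32, a common reference gene, at 0.09 (SE 0.17, adjusted p = 0.706). The 1 gene called higher, RpL39 (0.37, SE 0.14, adjusted p = 0.0350), turned to -0.04 on the values as deposited and to -0.02 with arrays centred on their medians.

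GlnRS, the glutaminyl-tRNA synthetase, ran against the rest of its list. It read 2049, 1235 and 1585 in the cytoplasm and 6889, 6594 and 6823 in the nucleus, with no overlap (1.98, SE 0.20, adjusted p = 2.22e-07), and was called in all 19 alternative settings.

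The mRNAs of proteins that work in the nucleus did not lie on the nuclear side as a group. RNA polymerase II subunits, general factors and Mediator had 24 of 46 lower and 1 higher, and their median was -0.86. Polr2L, a small polymerase subunit, read 13637, 14491 and 9577 in the cytoplasm and 3111, 3825 and 3072 in the nucleus (-1.94, SE 0.17, adjusted p = 5.46e-08). Chromatin remodellers and histone modifiers had 14 of 38 lower and 1 higher, and their median was -0.53 (8 lower with only the hypotonic arrays). The gene of the heterochromatin protein HP1a read 7392, 9711 and 8683 against 2524, 2274 and 1935 (-1.90, SE 0.18, adjusted p = 7.76e-08). DNA replication and cell cycle genes had 20 of 38 lower (12 without cytoplasmic array 3 or nuclear array 2, and 11 with only the hypotonic arrays), with PCNA, the clamp of the replication fork, at -1.68 (SE 0.13). Core snRNP proteins had 12 of 15 lower, with SmD3 at -1.44 (SE 0.14). The 12 include peng (-1.001), which is not known as an snRNP protein. The histone variant His2Av was -1.19.

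Among all genes tested 25.5% were lower and 17.3% higher, with a median of -0.28. Sequence-specific transcription factors lay near this in lower calls and median, with 14 of 51 lower, 4 higher and a median of -0.33. The median was -0.20 without cytoplasmic array 2, -0.21 over the mean of all probe sets of a gene, -0.50 (8 lower, 0 higher) with only the hypotonic arrays and -0.52 with quantiles within fractions. The 4 were the NF-kappaB factor dl (1.52, SE 0.34), foxo (1.36, SE 0.52), the Notch coactivator mam (1.09, SE 0.27) and ush (0.67). Of these, mam and ush are cofactors rather than sequence-specific factors. The adjusted p of the 4 ran up to 0.0454, for foxo, and the calls of foxo and ush were lost in 10 and 11 of 19 settings. The bZIP factor crc, the fly ATF4, went the other way, with 28796, 30516 and 33841 in the cytoplasm and 10669, 8323 and 10162 in the nucleus (-1.73, SE 0.12, adjusted p = 2.56e-09). SR and hnRNP proteins, which bind pre-mRNA, had 8 of 14 lower and 1 higher. That gene was ps, a splicing regulator, whose probe set read 163, 44.4 and 106 against 2889, 2691 and 3052 (3.997, SE 0.31, adjusted p = 9.28e-09). A different probe set of ps had 0.32 (adjusted p = 0.701), so its probe sets disagree.

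Related enzymes whose products work in different compartments were set side by side. P58IPK, a J protein of the ER that assists the chaperone BiP, read 527, 621 and 681 in the cytoplasm and 18769, 17879.8 and 18764 in the nucleus (4.57, SE 0.16, adjusted p = 5.97e-13). Its cytosolic relative DnaJ-1 read 3652, 4362 and 5193 against 3692, 3984 and 3623, and these ranges overlap (-0.25, SE 0.17, adjusted p = 0.248). Among FK506-binding proteins, which turn proline bonds, the cytosolic Fkbp12 read 39244, 41559.5 and 32716 in the cytoplasm and 9330.0, 10389.8 and 9909 in the nucleus (-1.93, SE 0.14, adjusted p = 2.25e-09). The nuclear Fkbp39 was also lower (-1.62, SE 0.14), while the ER protein Fkbp14 read 465, 779.7 and 1092 against 7210.2, 6635 and 6289.6 (3.06, SE 0.26, adjusted p = 2.42e-08). The cyclophilins, a different family with the same activity, gave -1.40 for the cytosolic Cyp1 (SE 0.13) and 2.73 for CG2852 of the secretory pathway (SE 0.14). In the Hsp90 family, the ER member Gp93 was 3.49 higher (SE 0.19) and the mitochondrial Trap1, at 0.13, was not called.

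The nucleotide exchange factors for Hsp70 chaperones had 4.50 for Sil1 of the ER (SE 0.20) and -0.56 for Roe1 of mitochondria (SE 0.19, adjusted p = 0.0262). The call of Roe1 was lost in 6 of 19 settings, among them those without cytoplasmic array 3 or nuclear array 1 or 2. The mitochondrial enzymes Sod2, which removes superoxide (-1.76), Idh3a (-1.42) and Prx3 (-1.26) were lower, as was the cytosolic malate dehydrogenase Mdh1 (-1.13). The Hsp70 family did not follow this split. The cytosolic Hsc70-4 was lower (-1.18, SE 0.12) and the mitochondrial Hsc70-5 was higher (0.82, SE 0.20, adjusted p = 0.00267). In depleted cells Hsc70-5 had -0.13 and was not called. Hsc70-3, the ER chaperone BiP, read 8151, 6593 and 4871 in the cytoplasm and 7531, 6539 and 8605 in the nucleus, and was not called (0.15, SE 0.21, adjusted p = 0.591). Its probe set carries the suffix that Affymetrix gave to sets whose probes are shared within a gene family, so its signal may include relatives. The extracellular dismutase gene Sod3 read 1503, 1118.5 and 143 against 1000.2, 821 and 1055 and was not called (0.48, SE 0.57). Hsp83, Sod1, Prx2, Calr, Cam and Mdh2 were not analysed here.

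**Figure D4:**
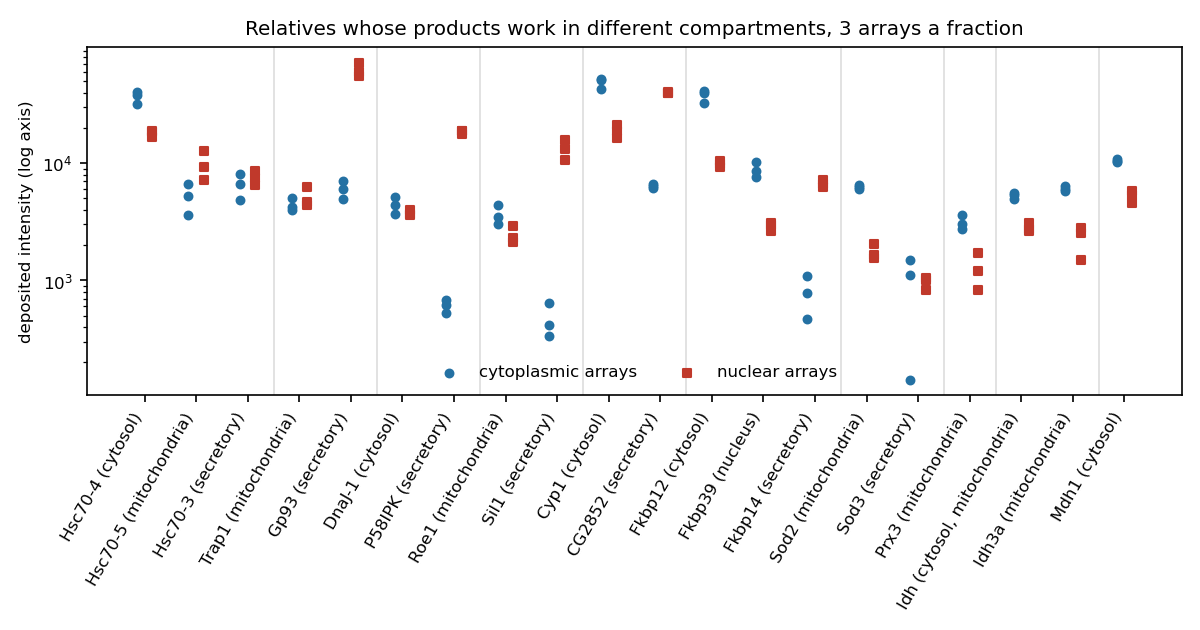
Deposited intensity (log axis) of related genes whose products work in the cytosol, nucleus, mitochondria or secretory pathway, with 3 cytoplasmic arrays as blue circles and 3 nuclear arrays as red squares; grey lines part the families. P58IPK, Sil1, Gp93, Fkbp14 and CG2852 are higher on every nuclear array, while Hsc70-3 and Sod3 overlap.

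Outside the lists, the genes with the largest differences on the nuclear side included enzymes of ER membranes and secreted proteins. Jheh2, a juvenile hormone epoxide hydrolase of ER membranes, read 103, 650.1 and 477 in the cytoplasm and 15314, 18967 and 16927 in the nucleus (5.15, SE 0.36, adjusted p = 2.03e-09). Agpat3, an acyltransferase of phospholipid synthesis, read 373, 98.8 and 179 against 10916, 8737 and 11848 (5.15, SE 0.25). The secreted proteins Spn88Ea, a serpin (5.07, SE 0.27), orion, a chemokine-like ligand of fly phagocytes (5.06, SE 0.32), and Swim, which binds the Wingless signal (4.88, SE 0.16), had differences of the same order, as did TM9SF2, a protein with many membrane spans (4.89, SE 0.36). CG9953, known here only by its annotation number, read 342, 65.4 and 685 against 16908, 17794 and 19759.9 (5.45, SE 0.38). On the cytoplasmic side, Tbca, a cofactor that folds beta-tubulin, read 22105, 20370.0 and 20661 in the cytoplasm and 4891, 4387.5 and 4613 in the nucleus (-2.29, SE 0.13, adjusted p = 8.24e-11). Sem1, a small subunit of the proteasome lid, was -2.24 (SE 0.26), and the glutathione transferases GstE11 and GstE8 were -2.35 (SE 0.31) and -2.21 (SE 0.24).

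Gene span, the length from the start to the end of a gene in the genome with introns, was taken from the RefSeq annotation of release 6 for 6849 of the tested genes. The median log2 difference went from -0.63 in the fifth with the shortest spans, 177 to 1306 bases, through -0.50, -0.32 and -0.15 to 0.07 in the fifth with the longest, 7570.0 to 291517 bases. The share of genes called lower in the nuclear fraction went from 38.8% to 9.05% and the share called higher from 7.59% to 23.4%. Outside the secretory and surface lists the pattern was similar, with medians from -0.63 to 0.03. Within those lists the 5 medians were 2.32, 2.45, 2.92, 2.85 and 2.25, with no such order. Across genes, which share the same 6 arrays and are not independent replicates, Spearman's rank correlation of span and difference was 0.277 over all 6849 genes and 0.078 over the 211 secretory and surface genes. The part of other gene classes in this pattern was not tested.

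**Figure D5:**
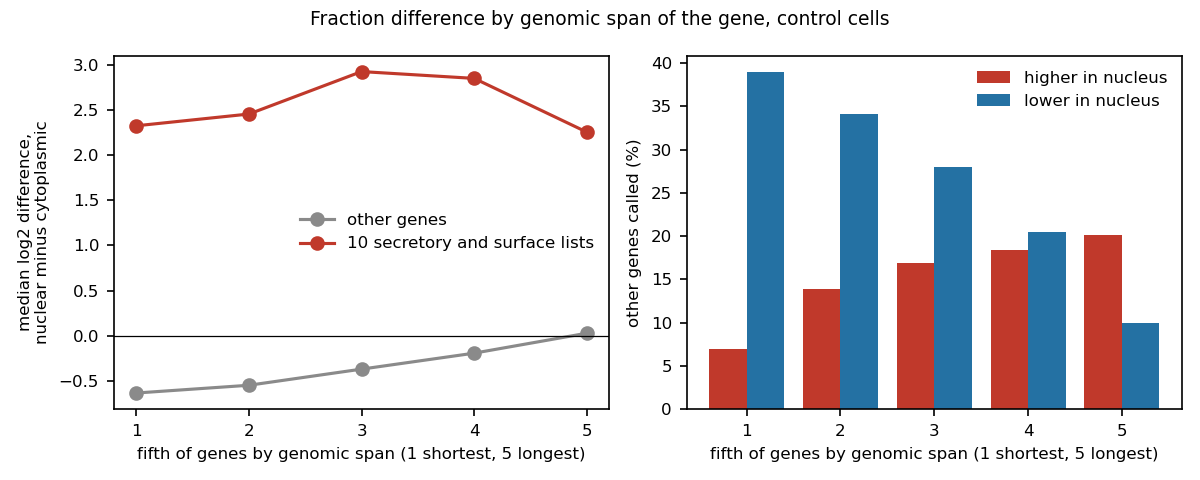
Left, median log2 difference between the nuclear and cytoplasmic fractions in 5 equal groups of genes ordered by genomic span (horizontal axis), for the secretory and surface lists and for the other genes; right, percent of the other genes called in each direction. Among the other genes the share called lower falls from 38.9% to 9.94% and the share called higher goes from 7.003% to 20.2%.

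The same classes were then read in the U2AF50-depleted cells, whose arrays are separate, although the fit shares its estimate of spread with them. There, 18.2% of genes were called higher in the nucleus and 31.6% lower. Of the 1185 genes called higher in control cells, 989 were also called higher in depleted cells, which is 83.5% of the control genes and 79.1% of the 1250 genes of the depleted cells. Of the 1748 called lower, 1431 were shared, 81.9% of the control genes and 65.9% of the 2173 of the depleted cells. The secretory and surface lists had 169 genes higher and 1 lower in depleted cells, with a median of 2.18. The 12 cytosolic lists had 266 lower and 7 higher, with a median of -1.17, and the 6 nuclear lists 114 lower and 5 higher, with a median of -0.89. Single genes described above gave 3.73 for Sec63, 4.19 for Stt3B, -1.83 for Vha13, -1.76 for Sec61beta, -1.53 for sesB and 1.75 for GlnRS in depleted cells. The test of the difference between treatments called 14 probe sets, 0.167%, of which 1 belonged to the secretory and surface lists, Sil1, and 2 to the cytosolic lists, eIF6 and RpL28. That count was 83 without cytoplasmic array 3 of the control and 3, 6 and 4 without its nuclear arrays 1, 2 and 3. U2af50 itself, the gene targeted in the depleted cells, read 2474, 5606 and 4751 in the control cytoplasm and 1701, 1709.7 and 1589 in the control nucleus (-1.18, SE 0.26, adjusted p = 0.00121), and its partner U2af38 was -0.77 (SE 0.20).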

How the data were processed

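RNA from both fractions of the fly line D. mel-2 was hybridised to 1-colour Affymetrix arrays of the fly genome, 3 per group in 4 groups by the titles. The authors deposited 1 linear intensity for each probe set on each array. In the deposited intensity columns the mean without the extreme values was near 1000 on each array, from the values themselves. Which software read the images and joined the probes into sets is not given in the sources used here.

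Intensities plus 94.9, the 20th percentile of all values, were turned into log2 values and quantile normalised over the 12 arrays. The 44 control probe sets were left out, and the 8379 probe sets with a mean above the 40th percentile went into limma 3.58.1 (R 4.3.3; lmFit, eBayes with an intensity trend, 8 residual and 8.96 prior degrees of freedom), adjusted by Benjamini and Hochberg at 0.05. The procedure was tested on simulated data. The platform annotation gave 12444 probe sets 1 symbol, 327 several and 1239 none, and genes were named from the first kind only, with 12394 matched to RefSeq. Where a gene had several probe sets, lists took the brightest on average. Named genes were the 20 with the largest difference in each direction that were called, well expressed and without overlap between fractions, up to 4 members of each list in each direction, all related genes of different compartments, genes with opposite probe sets, and fixed landmarks; other members were named after their values were seen. The comparison, the lists and the genes were chosen with earlier results of these data known. Of the landmarks, roX1, roX2, Hsromega, Act5C, alphaTub84B and eEF1alpha1 were not analysed here, and mitochondrial genome transcripts had 0 genes on the array. Classes by hydropathy and length of the protein were planned and not run, since no protein sequences were used here. The result of 1 gene list is not reported here. Alternatives varied scaling, pseudocount, filter, spread model, samples, pairing, RNA quality and replicates.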

Additional observations from a re-analysis of the deposited data

Results flagged for a closer look

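A test of the difference between treatments, depleted minus control, picked out 5 of the named genes (adjusted p under 0.05 in limma). Their nuclear against cytoplasmic log2 difference was not the same in U2AF50-depleted and control cells. The labels name hypotonic lysis for every depleted array but not for every control array. Treatment and lysis label thus cannot be fully told apart. CR42862, Swim and eIF6 were named for their large control differences, and the part of that choice was not tested. For Sil1, an exchange factor for the ER chaperone BiP, the difference was 4.50 in control and 2.80 in depleted cells, a change of -1.70 (SE 0.29, adjusted p = 0.0224). For the long noncoding RNA CR42862 it was 5.68 and 4.23, a change of -1.45 (SE 0.26, adjusted p = 0.0306). For Swim, a secreted protein, it was 4.88 and 3.65, a change of -1.23 (SE 0.22, adjusted p = 0.0310). For U2af50, the targeted gene, it was -1.18 and 0.78, a change of 1.96 (SE 0.37, adjusted p = 0.0375). For eIF6 it was -3.45 and -1.16, a change of 2.29 (SE 0.30, adjusted p = 0.00311). Over all probe sets the count past the threshold was 14, and it was 0 to 183 over the alternative settings.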

How the results depend on the processing

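Over 19 alternative settings the count of probe sets higher in the control nucleus stayed within 1.5 times of 1417, and the count of lower ones stayed so around 2114 except for 1279 with only the arrays labelled as hypotonic lysis, where the lower members of the 6 nuclear lists were 60. Leaving out 1 control array gave 1296 to 1393 higher and 1768 to 2039 lower, 158 to 167 higher secretory and surface genes, and 250 to 263 and 71 to 91 lower genes in the cytosolic and nuclear lists. Scaling moved the median of all probe sets from -0.27 to -0.34 as deposited, -0.31 with arrays centred on medians and -0.41 with quantiles within fractions, and the share of calls that were higher from 40.1% to 36.8%, 38.4% and 33.2%. The 14 probe sets of the interaction became 3 with the GAPDH ratio as a covariate, 28 with array quality weights, 183 with arrays centred on medians, 25 with the filter at the 60th percentile, 7 with no filter, 5 with no intensity trend, 0 with only the hypotonic arrays, 25 with the pseudocount at the 40th percentile, 27 with quantiles within fractions, 35 as deposited, and 3 to 83 when 1 array was left out (83 without cytoplasmic array 3, and 3, 6 and 4 without nuclear arrays 1, 2 and 3). The cause was not tested. RpL39 reversed to a log2 difference of -0.0203 with arrays centred on medians and -0.0436 as deposited. Of 211 named genes, 179 kept direction and side of the threshold in all 19 settings. DnaJ-1 gained a call as lower with quantiles within fractions, and Sod3 one with only the hypotonic arrays. Calls of the other 30 were lost 118 times, 28 of them with only the hypotonic arrays, which leave 1 cytoplasmic and 2 nuclear control arrays, where the lone array is assumed to vary like the other groups. Without the 100 brightest probe sets, added after seeing the data, the ratios of signal shares were 7.42, 0.413 and 0.563. Deviations of same-numbered control arrays from their group means correlated at r = -0.09, -0.02 and 0.06, and those of other pairs at -0.12 to 0.12. This cannot show whether the numbers pair the samples, since spread between single arrays can hide a shared culture. A replicate block gave 1392 higher, 2013 lower and 10 for the interaction. The classes by hydropathy and length of the protein and their alternatives were not run. Genes near background, below 94.9, have no measured order.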

Other observations

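Most long noncoding RNAs that were tested were not called. Of 29 on the array, 13 passed the filter on low values, 3 of them were higher in the nucleus and 0 lower, also at an unadjusted p under 0.05 in limma, with a median of 0.15 beside -0.28 for all genes. That median was 0.30 without cytoplasmic array 1, 0.09 without cytoplasmic array 2, 0.07 and 0.06 without nuclear arrays 1 and 2, and 0.02 to 0.49 over all settings, and 1 gene was lower without cytoplasmic array 3 or with no filter. CR42862 read 523, 439.7 and 672 in the cytoplasm and 33456, 29497 and 33354 in the nucleus (log2 difference 5.68, SE 0.18), and a second probe set of it gave 5.41 (SE 0.40). The antisense RNA CR43468 read 513, 378 and 414 against 1696, 1066 and 1583 (1.61, SE 0.27, adjusted p = 1.10e-04). The call of CR32218 (1.07, SE 0.36) was lost in 6 of 19 settings, among them those without cytoplasmic array 1 or 2 or nuclear array 2 or 3. The other 10 were not called.

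Several probe sets were tested for 497 genes, and 6 of the 256 with a call had probe sets called in opposite directions, namely CG15126, CG18476, Hph, eys, inaE and spir. For inaE, a lipase gene of fly photoreceptors with 7 RefSeq transcripts, a probe set read 1443, 1135 and 584 in the cytoplasm and 141, 541 and 491 in the nucleus (-1.29, adjusted p = 0.0376). A second one read 123, 171 and 75.5 against 1147, 1000.4 and 1106 (2.59, adjusted p = 0.00171). The third had the highest mean and was not called (0.04, adjusted p = 0.943). For eys the values were -1.53 and 1.46, and for Hph, the oxygen-sensing prolyl hydroxylase, -0.76 and 1.06. For spir, an actin nucleator with 10 RefSeq transcripts, 1 probe set had -0.87 and 2 had 0.51 and 0.96. A further probe set of Hph (-0.13) and of spir (0.19) was not called. The calls of CG15126, CG18476, Hph and spir were lost in 8, 6, 1 and 3 of 19 settings for the probe set with the highest mean. In depleted cells the second inaE probe set had -0.61, and limma did not call its difference between treatments (adjusted p = 0.139).

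By chromosome, the 31 tested genes of the small chromosome 4 had a median of 0.38, with 32.3% higher and 16.1% lower. The medians of the 5 larger arms lay between -0.31 and -0.23. In depleted cells the median of chromosome 4 was -0.22, beside -0.35 to -0.28 on the larger arms. This comparison was made after seeing the data and was not tested.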
